A study of Mus musculus with 17 samples.

Results

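The 10 genes described here are *Trp53*, *Mdm2*, *Cdkn1a*, *Ccng1*, *Zmat3*, *Sesn2*, *Bax*, *Bbc3*, *Cdkn2a* and *Cdkn2b*, the p53 pathway and the *Cdkn2a* locus as far as they have been linked with a barrier to reprogramming. They were taken by name from an RNA-seq table of 38734 mouse genes. All 10 were found, and all 10 passed the filter on low values in every fit. The table holds 17 libraries from mouse embryonic fibroblasts (MEFs) on their way to induced pluripotent stem cells (iPSCs), and the study asked how the microRNA miR-203 alters the RNA profile along this path. KO libraries come from mice labelled miR-203 KO; OSKM, KI libraries from mice labelled ColA1_miR203; Rosa26rtTA; OSKM, in which doxycycline induces miR-203, and WT libraries from mice labelled miR-203 WT; OSKM. Every genotype carries the doxycycline-inducible OSKM cassette (*Pou5f1*, *Sox2*, *Klf4* and *Myc*), so the WT cells are transgenic too. Each genotype was sampled as MEFs and at days 0, 4, 6 and 7 of reprogramming, and iPSCs were sampled for KO and WT. Doxycycline was given at 1 µg/ml, and the label of a treatment lasting about 2 weeks stands on every library, MEFs included. The labels do not state how many embryos, cultures or iPSC clones a library came from, nor the age of the embryos.

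The protein p53, encoded by *Trp53*, is a transcription factor that accumulates when DNA is damaged or when oncogenes such as *Myc* are active. It switches on genes that stop the cell cycle (*Cdkn1a*), start apoptosis (*Bax*, *Bbc3*) or restrain p53 itself (*Mdm2*, *Ccng1*). *Cdkn2a* makes p16Ink4a, which blocks CDK4 and CDK6, and p19Arf, which holds MDM2 away from p53, and the neighbouring *Cdkn2b* makes the related inhibitor p15Ink4b. In fibroblasts, loss of p53, p21 (the product of *Cdkn1a*) or the *Cdkn2a* locus is known to raise the yield of iPSC colonies.

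*Cdkn2a* lies at chr4:89274471-89294653 and *Cdkn2b* at chr4:89306299-89311039 (GRCm38, both on the minus strand), with 11645 bases between them. The start windows of *Cdkn2a* are shown because its transcripts begin at separate promoters, while the table has 1 value per gene: the values below add p19Arf and p16Ink4a RNA, and the contribution of each cannot be told apart. Each window runs 5′ to 3′ on the gene's strand and has 250 bases before and 50 bases after a RefSeq start (GRCm38.p6). Capitals mark an E2F motif (TTTCCCGC, TTTCGCGC, TTTGCCGC or TTTGGCGC on either strand), which was found in the p19Arf window at base 152, not in the p16Ink4a window, and in 2.26% of 32851 windows of all genes.
*Cdkn2a* start of the p19Arf transcript, chr4:89294570-89294869: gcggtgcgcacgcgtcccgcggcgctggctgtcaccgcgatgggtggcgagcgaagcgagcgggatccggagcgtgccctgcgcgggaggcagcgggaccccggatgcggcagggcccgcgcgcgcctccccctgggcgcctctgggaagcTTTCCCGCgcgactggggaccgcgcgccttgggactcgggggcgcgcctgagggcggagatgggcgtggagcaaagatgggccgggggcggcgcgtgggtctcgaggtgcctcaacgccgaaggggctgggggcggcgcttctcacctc
*Cdkn2a* start of the p16Ink4a transcript, chr4:89282143-89282442: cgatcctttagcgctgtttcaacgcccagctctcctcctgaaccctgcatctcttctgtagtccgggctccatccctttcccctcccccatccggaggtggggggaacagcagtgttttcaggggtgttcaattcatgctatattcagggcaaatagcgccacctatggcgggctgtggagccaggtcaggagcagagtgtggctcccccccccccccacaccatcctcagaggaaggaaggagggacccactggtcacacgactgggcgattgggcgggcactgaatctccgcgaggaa

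*Cdkn1a* lies at chr17:29090976-29100727 on the plus strand. Its upstream start window is shown because it is the only window of a member with CATG followed by any 6 bases and CATG again, the spacing of the cores in a full p53 site (the same on both strands, from base 203), which 0.712% of all windows hold. Capitals mark that match and both matches to the 10-base p53 half-site motif, one of which overlaps it. Windows were given for 9 of the 10 genes (13 windows, *Zmat3* not among them). A p53 half-site was found in 8.36% of all windows and in those of *Cdkn1a*, *Trp53*, *Mdm2*, *Ccng1* and *Bax*. A match is a stretch of letters and says nothing on binding in these cells. The other genes lie at chr11:69580359-69591873 (*Trp53*, plus strand), chr10:117688875-117710758 (*Mdm2*, minus), chr11:40748552-40755311 (*Ccng1*, minus), chr3:32334792-32366014 (*Zmat3*, minus), chr4:132492032-132510501 (*Sesn2*, minus), chr7:45461697-45466898 (*Bax*, minus) and chr7:16308393-16318205 (*Bbc3*, plus), all protein-coding.
*Cdkn1a* upstream start, chr17:29090729-29091028: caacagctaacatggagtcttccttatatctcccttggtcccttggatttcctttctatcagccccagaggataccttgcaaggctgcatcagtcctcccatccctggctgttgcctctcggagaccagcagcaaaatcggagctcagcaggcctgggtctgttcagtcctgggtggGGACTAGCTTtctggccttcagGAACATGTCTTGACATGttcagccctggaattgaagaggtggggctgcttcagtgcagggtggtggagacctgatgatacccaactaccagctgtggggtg

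The microRNA that differs between the genotypes, miR-203-3p (chr12:112130927-112130948, plus strand), is shown with its seed, bases 2 to 8, in capitals.
miR-203-3p: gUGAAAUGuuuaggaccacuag
The match to that seed, CATTTCA, was searched on the sense strand, using for every gene its longest 3′ untranslated region. It was present in *Ccng1* (1 site) and *Zmat3* (3 sites), and in 2000 of 11688 expressed genes searched (17.1%). The sites are shown with the 7 matching bases in capitals.
*Ccng1* site: tacataaaaaccaaCATTTCAtgaatgca
*Zmat3* site 1: ttagcaagtgttagCATTTCAcagagggt
*Zmat3* site 2: cagatggctctataCATTTCAgacagcgt
*Zmat3* site 3: attttagttttagaCATTTCAcagttctc

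Levels are given as FPKM, in which fragments are divided by the length of the transcript and by the number mapped in a library, with 1 library for each genotype and stage and a depth that the files do not state. *Mir203*, the targeted gene, was listed at 0 in all KO and WT libraries and between 185 and 7903 FPKM in KI libraries. A poly(A) library does not measure the mature microRNA, so KO and WT could not be checked by it. *Pou5f1*, a factor of the cassette, was between 0.491 and 0.851 FPKM in KI cells at days 4, 6 and 7, against 255 to 954 FPKM in KO cells and 37.4 to 266 FPKM in WT cells of those days, so these KI libraries go against a label of cells with the cassette induced. Among WT libraries, the X-inactivation RNA *Xist* was at 46.9 FPKM in MEF and 48.0 FPKM at day 4, against 0.581 to 3.23 FPKM in the rest. Y-linked *Ddx3y* was at 0.0179 FPKM in MEF, 2.74 FPKM at day 4 and 1.51 FPKM in iPSC, against 16.6 to 19.6 FPKM at days 0, 6 and 7. The cells sampled as WT at successive stages thus differed in sex-linked RNA, and each tested comparison of the 10 genes is also given without them. Fibroblast markers summed to 4181 to 11546 FPKM in KO cells of days 4, 6 and 7, 21090 to 24617 FPKM in KI cells and 14254 to 21720 FPKM in WT cells, with 106 to 502 FPKM in iPSC and 2188 to 3243 FPKM before day 4. Markers of macrophages (10 genes) summed to 36.3 to 116 FPKM in KO cells, 1787 to 2131 FPKM in KI cells and 1349 to 3989 FPKM in WT cells of those days. In these bulk samples, fewer cells of a type and less RNA per cell cannot be told apart.

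**Figure D1:**
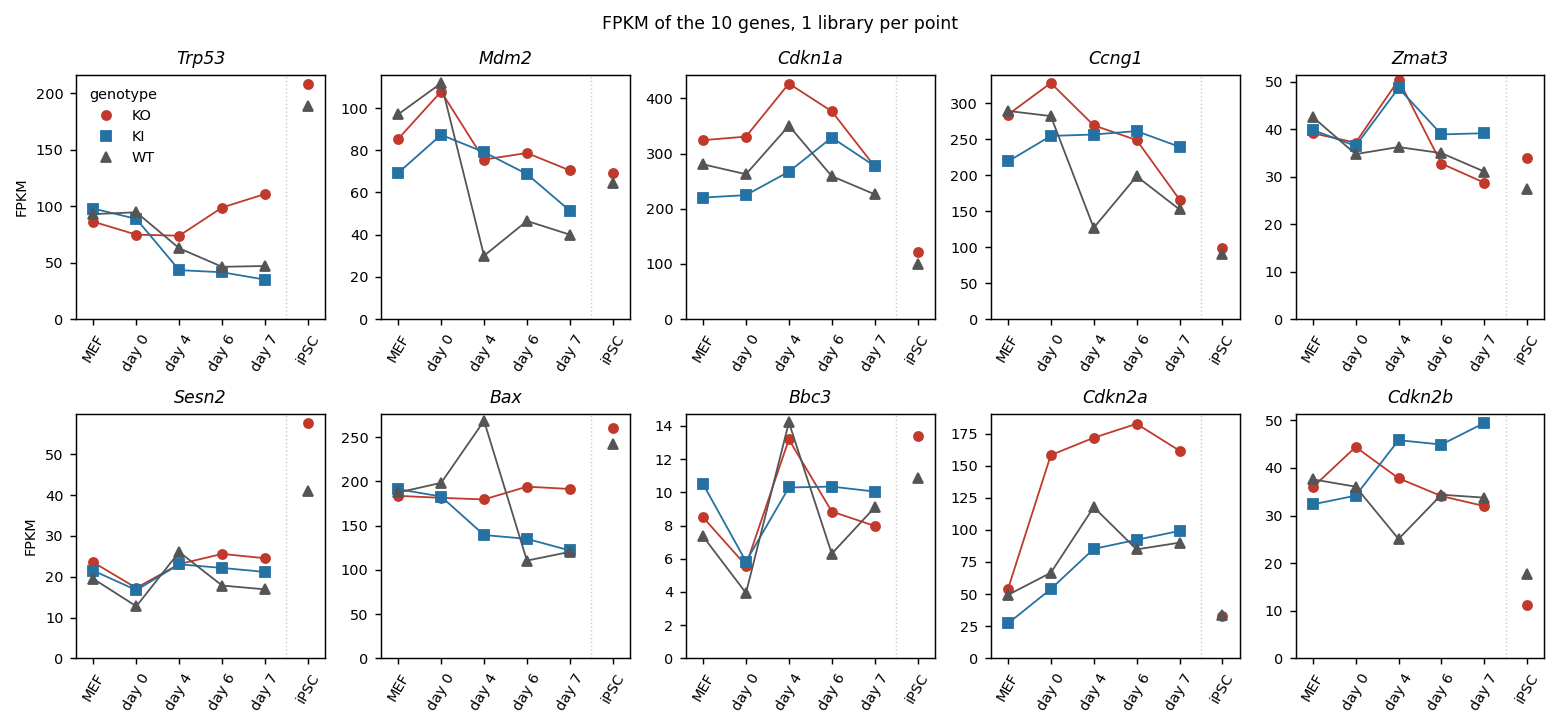
FPKM of the 10 genes (linear y axes from 0, with a scale of their own) against stage, 1 point per library: KO red circles, KI blue squares, WT grey triangles, with lines joining the libraries of a genotype up to day 7. *Trp53* of KO (111 FPKM) lies above KI (34.9 FPKM) and WT (47.0 FPKM) at day 7, *Cdkn2a* of KO is highest from day 0 to day 7, and *Cdkn1a*, *Cdkn2a* and *Cdkn2b* are low in both iPSC libraries.

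*Trp53*, the gene of p53 itself, had its highest RNA in iPSCs and, from day 4 to day 7, in KO cells. KO cells held 86.2 FPKM as MEFs, 74.8 at day 0, 73.9 at day 4, 98.8 at day 6, 111 at day 7 and 208 as iPSCs. KI cells held 97.9 FPKM as MEFs, 88.8 at day 0, 43.3 at day 4, 41.5 at day 6 and 34.9 at day 7. WT cells held 93.0 FPKM as MEFs, 94.6 at day 0, 62.7 at day 4, 46.3 at day 6, 47.0 at day 7 and 189 as iPSCs. The 3 genotypes lay within 75 to 98 FPKM up to day 0, and from day 4 on KO was above WT and WT above KI at every day. From day 4 to day 7 the ratio of FPKM was 1.5 in KO, 0.806 in KI and 0.749 in WT.

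*Mdm2*, a p53 target whose product marks p53 for degradation, was highest at day 0 in each genotype, with 108 FPKM in KO, 87.3 FPKM in KI and 112 FPKM in WT. At days 4, 6 and 7 it was at 75.6, 78.7 and 70.4 FPKM in KO cells. KI cells of these days had 79.1, 68.7 and 51.4 FPKM. WT cells had 30.0, 46.5 and 40.0 FPKM, below both other genotypes on each day. The iPSC libraries were close, at 69.4 FPKM in KO and 64.5 FPKM in WT, and MEFs had 85.4 FPKM in KO, 69.3 FPKM in KI and 97.0 FPKM in WT.

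*Cdkn2a* was lower in MEFs and iPSCs than between them, and KO cells had the most from day 0 to day 7. KO cells had 53.8 FPKM as MEFs, 158 at day 0, 172 at day 4, 183 at day 6, 162 at day 7 and 32.8 as iPSCs. KI cells had 27.2 FPKM as MEFs, 54.0 at day 0, 85.2 at day 4, 92.3 at day 6 and 99.2 at day 7. WT cells had 49.4 FPKM as MEFs, 66.6 at day 0, 118 at day 4, 84.8 at day 6, 90.1 at day 7 and 33.9 as iPSCs. The day 0 library was above the MEF library in all 3 genotypes, by a ratio of 2.94 in KO, 1.99 in KI and 1.35 in WT. *Pou5f1* was below 1 FPKM in the day 0 library of each genotype.

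*Cdkn2b*, the adjacent gene, stayed between 25.1 and 49.5 FPKM up to day 7. In KO libraries it was at 35.9 FPKM in MEFs, 44.4 at day 0, 37.8 at day 4, 34.1 at day 6, 32.0 at day 7 and 11.3 in iPSCs. In KI libraries it was at 32.3, 34.2, 45.8, 44.9 and 49.5 FPKM from MEFs to day 7, and KI was the highest genotype from day 4 on. In WT libraries it was at 37.6 FPKM in MEFs, 36.1 at day 0, 25.1 at day 4, 34.4 at day 6, 33.8 at day 7 and 17.7 in iPSCs. The iPSC libraries were below every other library.

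*Cdkn1a*, whose product p21 inhibits cyclin-dependent kinases, was the most abundant of the 10 by its median over 17 libraries, 277 FPKM. KO cells had 324 FPKM as MEFs, 331 at day 0, 427 at day 4, 377 at day 6, 277 at day 7 and 121 as iPSCs. KI cells had 220.3, 225, 267, 329 and 278 FPKM from MEFs to day 7. WT cells had 281 FPKM as MEFs, 263 at day 0, 351 at day 4, 259 at day 6, 226 at day 7 and 99.3 as iPSCs. KO and WT were highest at day 4, KI at day 6, and the iPSC libraries were again the lowest of all.

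*Ccng1* encodes cyclin G1, a p53 target that acts through MDM2, and resembled *Cdkn1a* in its low iPSC values of 98.6 FPKM in KO and 90.9 FPKM in WT. KO cells had 284, 328, 269, 249 and 166 FPKM from MEFs to day 7. KI cells had 219, 255, 256, 261 and 239 FPKM over the same stages, and WT cells 289, 282, 127, 198 and 152 FPKM. The WT day 4 library stands out at 127 FPKM. *Zmat3*, which encodes an RNA-binding zinc finger protein, varied least of the 10, between 27.5 FPKM in WT iPSCs and 50.4 FPKM in KO cells at day 4, a ratio of 1.84.

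*Sesn2*, which encodes a sestrin that restrains mTORC1 when leucine is short, was highest in iPSCs, at 57.6 FPKM in KO and 40.9 FPKM in WT. In the other libraries it was between 12.8 FPKM (WT, day 0) and 26.0 FPKM (WT, day 4). Its day 0 value was the lowest of each genotype, with 17.2 FPKM in KO, 16.7 FPKM in KI and 12.8 FPKM in WT. At day 4 it was 23.1 FPKM in KO, 23.0 FPKM in KI and 26.0 FPKM in WT. *Bbc3*, which encodes the apoptosis starter PUMA, was likewise lowest at day 0 in each genotype. It had 8.49, 5.59 and 13.2 FPKM in KO, 10.5, 5.84 and 10.3 FPKM in KI, and 7.35, 3.94 and 14.2 FPKM in WT, as MEFs and at days 0 and 4. At days 6 and 7 *Bbc3* was at 8.85 and 7.98 FPKM in KO, 10.3 and 10.1 FPKM in KI, and 6.30 and 9.09 FPKM in WT.

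*Bax*, whose product opens pores in the outer mitochondrial membrane, was between 181 and 198 FPKM in all MEF and day 0 libraries. At days 4, 6 and 7 it was at 179.7, 194 and 191 FPKM in KO cells, 139, 135 and 122 FPKM in KI cells, and 269, 111 and 120.4 FPKM in WT cells. The WT day 4 library again stands out, here as the highest of the 17. The iPSC libraries had 261 FPKM in KO and 243 FPKM in WT. Where genes overlap on a strand their reads can be shared: an antisense-class gene (*Gm12981*, at most 0.688 FPKM) overlaps *Sesn2*, *Gm45808* overlaps *Bax*, and a gene on the other strand overlaps *Cdkn1a*.

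Comparing day 0 with MEFs, limma called none of the 10 genes, against 0.0492% of the 14240 genes tested (7 genes). At an unadjusted p below 0.05 there were 3 of the 10 and 688 of the 14240 genes. These fits take the genotypes as the samples of a stage, since each genotype and stage has 1 library, and p-values measure the spread between these libraries only. *Cdkn2a* was 0.98 ± 0.25 higher at day 0 on the log2(FPKM + 1) scale (SE, limma adjusted p = 0.464, higher in 3 of 3 genotypes). *Bbc3* differed by -0.68 ± 0.18 (adjusted p = 0.528) and *Sesn2* by -0.45 ± 0.14 (adjusted p = 0.654), both lower in 3 of 3 genotypes. The difference of these genes between day 0 and MEFs thus failed the correction over all genes. It did so without WT MEF, WT day 4 and WT iPSC too, with *Cdkn2a* at 1.27 (adjusted p = 0.101), *Bbc3* at -0.68 (0.507) and *Sesn2* at -0.38 (0.481).

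By day 4, *Bbc3* and *Sesn2* had risen relative to day 0. The remaining 8 genes did not pass the test. *Bbc3* rose by 1.15 ± 0.18 (log2, SE, limma adjusted p = 0.00129) and *Sesn2* by 0.61 ± 0.14 (adjusted p = 0.00953), each in 3 of 3 genotypes. Over all genes, 22.3% were called (12.3% higher, 10% lower). Beside that share, 2 calls among 10 genes are not a result about these genes as a group. In KO, KI and WT, *Sesn2* was at 23.5, 21.5 and 19.5 FPKM as MEFs and 23.1, 23.0 and 26.0 FPKM at day 4. *Bbc3* was at 8.49, 10.5 and 7.35 FPKM as MEFs and 13.2, 10.3 and 14.2 FPKM at day 4. The rise is thus counted from a day 0 value below that of MEFs. *Mdm2* differed by -0.84 ± 0.30 (adjusted p = 0.0705) and *Trp53* by -0.54 ± 0.33 (adjusted p = 0.283). *Cdkn2a* differed by 0.53 ± 0.25 (adjusted p = 0.159) and *Cdkn1a* by 0.34 ± 0.17 (adjusted p = 0.167). Without WT MEF, WT day 4 and WT iPSC both calls held, with *Bbc3* at 0.96 (adjusted p = 0.0162) and *Sesn2* at 0.42 (0.0253). Without the KI libraries of days 4, 6 and 7 the call of *Sesn2* was lost (adjusted p = 0.0538). It was also lost without all WT libraries (0.119), as was that of *Bbc3* (0.0593), and without all KI libraries (0.11). Without all KO libraries *Trp53* was called lower at day 4, by -0.80 (adjusted p = 0.0261). Marker sums moved too. Fibroblast markers were at 11546 to 21090.1 FPKM at day 4, against 2188 to 3205 FPKM at day 0. Macrophage markers were at 36.3 FPKM in KO, 1787 in KI and 1349 in WT at day 4, against 8.75, 184 and 179 FPKM in the KO, KI and WT cells of day 0. Pluripotency markers were at 285 FPKM in KO, 1.40 in KI and 288 in WT, against 2.13, 2.76 and 1.08 FPKM. Their part in the result was not tested.

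From day 4 to day 7 none of the 10 passed, against 0.0211% of all genes (3 genes). At an unadjusted p below 0.05 there were 3 of the 10 and 1025 of all 14240 genes. *Zmat3* differed by -0.44 ± 0.14 (limma adjusted p = 0.513), *Bbc3* by -0.43 ± 0.18 (adjusted p = 0.667) and *Cdkn1a* by -0.40 ± 0.17 (adjusted p = 0.65). Without WT MEF, WT day 4 and WT iPSC none passed either, with *Zmat3* at -0.56 (adjusted p = 0.548), *Bbc3* at -0.23 (0.939) and *Cdkn1a* at -0.29 (0.901).

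In iPSCs relative to day 7, the cell cycle inhibitors fell while *Trp53* and *Sesn2* rose. *Cdkn2a* fell by 1.95 ± 0.28 (log2, SE, limma adjusted p = 0.000316) and *Cdkn1a* fell by 1.31 ± 0.19 (adjusted p = 0.000297). *Cdkn2b* fell by 1.28 ± 0.27 (adjusted p = 0.00311) and *Ccng1* fell by 0.89 ± 0.29 (adjusted p = 0.0236). *Trp53* rose by 1.64 ± 0.38 (adjusted p = 0.00481), *Sesn2* by 1.21 ± 0.16 (adjusted p = 0.000159) and *Bax* by 0.76 ± 0.28 (adjusted p = 0.0438). *Bbc3* (0.44 ± 0.21, adjusted p = 0.0988), *Mdm2* (0.35 ± 0.34, adjusted p = 0.412) and *Zmat3* (-0.05 ± 0.17, adjusted p = 0.829) did not pass. So 3 of the 10 were called higher and 4 lower, where the test called 49.7% of all genes, 25.6% higher and 24.1% lower. Beside that share, 7 calls among 10 genes are not a result about these genes as a group. The median difference over all genes was 0.11. Each of the 7 called genes went the same way in both genotypes with iPSCs, while the uncalled *Mdm2* (iPSC over day 7 of 0.985 in KO and 1.61 in WT) and *Zmat3* (1.18 in KO and 0.884 in WT) did not. For *Trp53*, iPSC over day 7 was 1.88 in KO and 4.02 in WT. For *Cdkn1a* the ratio was 0.438 in KO and 0.439 in WT, and for *Cdkn2a* 0.203 in KO and 0.377 in WT. *Sesn2* had ratios of 2.35 in KO and 2.42 in WT.

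The calls of *Cdkn1a*, *Cdkn2a* and *Sesn2* against day 7 held under each of 11 alternatives. Those without WT iPSC, without all WT or without all KO libraries hold only the KO or only the WT iPSC library. The spread in these fits came from other stages, not from iPSC samples. That of *Bax* was kept in 5 of the 11. It was lost with no filter on low values (adjusted p = 0.0605), without the KI libraries of days 4, 6 and 7 (0.104), without WT MEF, WT day 4 and WT iPSC (0.126), and without all libraries of WT (0.184), KO (0.0894) or KI (0.145). That of *Ccng1* was lost without those KI libraries (0.0546) and without all libraries of WT (0.0858), KO (0.145) or KI (0.0868). *Trp53* was not called without WT MEF, WT day 4 and WT iPSC (adjusted p = 0.0913) or without all WT libraries (0.195), and *Cdkn2b* not without all KO libraries (0.0571). Fibroblast markers moved with this comparison, at 106 to 502 FPKM in iPSC, against 4181 to 24617 FPKM over days 4 to 7, and their part in the result was not tested.

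Against MEFs, iPSCs had less *Ccng1* (-1.42 ± 0.29, limma adjusted p = 0.00229), *Cdkn1a* (-1.38 ± 0.19, adjusted p = 0.000172) and *Cdkn2b* (-1.18 ± 0.27, adjusted p = 0.00487), and more *Sesn2* (1.16 ± 0.16, adjusted p = 0.000168). *Cdkn2a* differed by -0.53 ± 0.28 (adjusted p = 0.157), with 32.8 and 33.9 FPKM in iPSCs, against 27.2 to 53.8 FPKM in MEFs. *Trp53* differed by 0.95 ± 0.38 (adjusted p = 0.0638) and *Bbc3* by 0.49 ± 0.21 (adjusted p = 0.0833). Of all genes 41.8% were called, 20.5% higher and 21.4% lower. Of the 10, 1 was called higher and 3 lower. Without WT MEF, WT day 4 and WT iPSC the 4 called genes kept their direction, and *Cdkn2a* was at -0.73. That fit and those without all WT or all KO libraries hold only the KO or only the WT iPSC library. They thus have no spread between iPSC samples. *Ccng1* (adjusted p = 0.0797) and *Cdkn2b* (0.143) were not called without all KO libraries. *Trp53* was called in 4 of 11 alternatives, with an adjusted p of 0.0362 under quantile normalization and 0.0187 under upper-quartile scaling. Fibroblast markers were at 106 to 502 FPKM in iPSCs, against 2599.9 to 3243 FPKM in MEFs, and pluripotency markers at 4223 to 4979 FPKM in iPSCs, against 1.03 to 2.88 FPKM in MEFs; their part in the result was not tested.

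**Figure D2:**
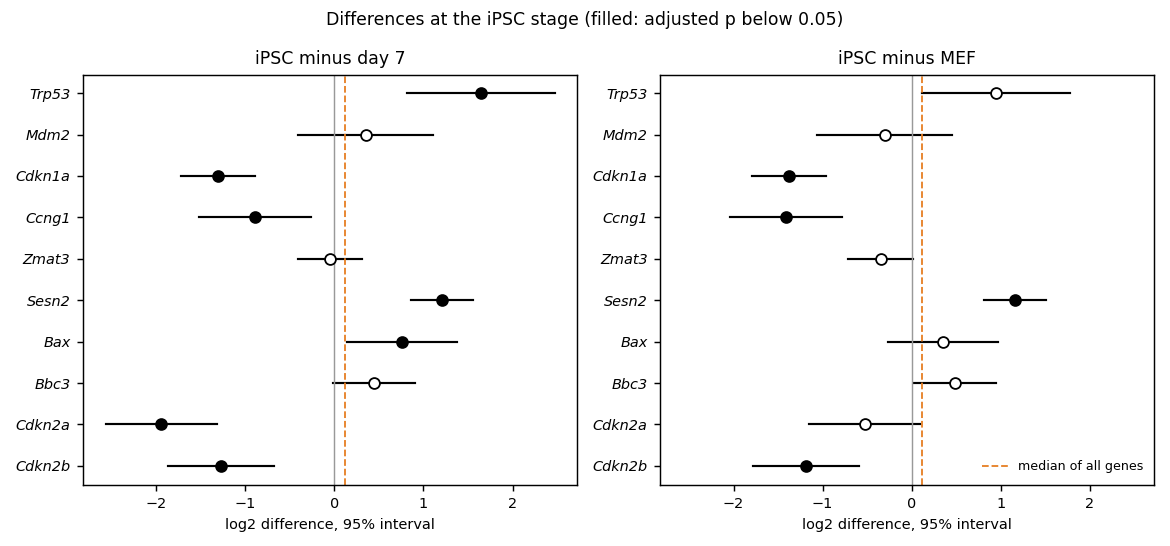
Log2 difference of FPKM + 1 (x axis, point) with its 95% interval (line) for the 10 genes, iPSC minus day 7 (left) and iPSC minus MEF (right); filled points have a limma adjusted p below 0.05 and the dashed line is the median of all genes. *Cdkn1a*, *Cdkn2b* and *Ccng1* are lower and *Sesn2* is higher in both panels, whereas *Cdkn2a* is called in the left panel only (-1.95 against day 7, -0.53 against MEF), a difference between panels that was not tested.

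Late in reprogramming, over days 4, 6 and 7, KO cells had more *Mdm2*, *Trp53* and *Cdkn2a* RNA than WT cells. *Mdm2* was higher by 0.95 ± 0.18 (log2, SE, limma adjusted p = 0.0175), *Trp53* by 0.84 ± 0.19 (adjusted p = 0.0289) and *Cdkn2a* by 0.83 ± 0.21 (adjusted p = 0.0404), each on 3 of 3 days. No other member passed. *Ccng1* differed by 0.51 ± 0.19 (adjusted p = 0.0972) and *Cdkn1a* by 0.37 ± 0.16 (adjusted p = 0.146). *Bax* differed by 0.30 ± 0.25 (adjusted p = 0.429) and *Sesn2* by 0.28 ± 0.14 (adjusted p = 0.204). The smallest differences were those of *Cdkn2b* (0.16), *Zmat3* (0.09) and *Bbc3* (0.05). Thus 3 of 10 were called higher and none lower, where the test called 14.7% of 13837 genes, 9.5% higher and 5.23% lower. Over all genes the median lay 0.17 toward KO, and relative to it the differences were 0.78 for *Mdm2*, 0.68 for *Trp53* and 0.66 for *Cdkn2a*. Upper-quartile scaling takes that median to 0.01 and turns the split of all calls to 835 higher and 939 lower. Under it *Cdkn2a* was at 0.65 and not called (adjusted p = 0.0785).

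The days are successive samples of a genotype, not separate cultures by the labels. All 3 calls were lost when the fit held KO and WT only (adjusted p = 0.107 for *Mdm2*, 0.163 for *Trp53* and 0.18 for *Cdkn2a*). They were also lost when the MEF, day 0, day 6 or day 7 libraries were left out (from 0.0722 to 0.312). *Cdkn2a* was also lost with no filter on low values (0.0585). Without the day 4 libraries *Cdkn1a* (0.41, adjusted p = 0.00651), *Bax* (0.74, adjusted p = 0.000884) and *Sesn2* (0.50, adjusted p = 0.00256) joined the 3 called genes. Without the WT libraries of MEF and day 4 all 3 remained, at 0.71 for *Mdm2*, 1.04 for *Trp53* and 0.99 for *Cdkn2a*. *Bax* (0.70, adjusted p = 0.00804) and *Sesn2* (0.47, adjusted p = 0.0134) were called as well. Calls over all genes rose without those WT libraries too. With 1 stage left out they were 24 to 7705, beside 2037 in the main fit. Beside such counts the added calls are not a result about these genes as a group. Pluripotency markers summed to 285 to 1617 FPKM in KO cells and 45.5 to 288 FPKM in WT cells of these days, and epithelial markers to 69.9 to 1002 FPKM in KO cells and 16.05 to 115 FPKM in WT cells. These sums and the lower fibroblast and macrophage sums of KO cells move with the result, and their part in it was not tested.

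By stage, *Cdkn2a* was past a 2-fold difference (log2 of 1) at day 0 already, at 158 FPKM in KO and 66.6 FPKM in WT. This is a log2 difference of 1.23 between single libraries, with no test, at a stage when 6.66% of genes passed that fold. *Mdm2* (1.30) and *Ccng1* (1.08) passed it at day 4 (10.8% of genes), *Trp53* (1.08) and *Cdkn2a* (1.10) at day 6 (24.7%) and *Trp53* (1.22) at day 7 (31.2%). As MEFs (4.21%) and as iPSCs (9.14%) no member passed. Tested as late against early, the change in the KO minus WT difference was 1.07 ± 0.29 for *Mdm2* (limma adjusted p = 0.122), 1.06 ± 0.30 for *Trp53* (adjusted p = 0.13) and 0.15 ± 0.34 for *Cdkn2a* (adjusted p = 0.809). None of the 10 passed, against 0.0795% of all genes. At an unadjusted p below 0.05 there were 2 of the 10 and 3084 of all 13837 genes, so the members were near the share of all genes. Without WT MEF and WT day 4 *Bax* was called (0.84, adjusted p = 0.046). Without day 4 *Trp53* (1.37, adjusted p = 0.00175), *Mdm2* (0.89, adjusted p = 0.00253) and *Bax* (0.82, adjusted p = 0.00312) passed. Calls over all genes rose without WT MEF and WT day 4 too. With 1 stage left out they were 4 to 6607, beside 11 in the main fit. These added calls are thus not a result about the members as a group.

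Between KI cells, which carry the inducible miR-203, and WT cells none of the 10 passed the test over days 4, 6 and 7. Of all genes 2.44% were called (0.73% higher, 1.71% lower). At an unadjusted p below 0.05 there were 3507 of all 13837 genes and 3 of the 10, a share near that of all genes. The 3 members were *Mdm2* at 0.76 ± 0.18 (limma adjusted p = 0.0704), *Cdkn2b* at 0.59 ± 0.15 (adjusted p = 0.0784) and *Ccng1* at 0.68 ± 0.19 (adjusted p = 0.0961), higher in KI on 3 of 3 days. *Zmat3*, with 3 seed matches, differed by 0.30 ± 0.14 (limma adjusted p = 0.21). Over these days *Ccng1* and *Zmat3*, the genes with a match, were both at higher means in KI than in WT. *Trp53* differed by -0.37 ± 0.19 (adjusted p = 0.262), lower on 3 of 3 days, and *Cdkn2a* by -0.07 ± 0.21 (adjusted p = 0.87). Without WT MEF and WT day 4 none passed either, with *Mdm2* at 0.52 (adjusted p = 0.131), *Cdkn2b* at 0.42 (0.145) and *Ccng1* at 0.46 (0.19). Without day 4, 5 members were called higher in KI, namely *Mdm2* (adjusted p = 0.0232), *Cdkn2b* (0.0374), *Ccng1* (0.039), *Cdkn1a* (0.0464) and *Sesn2* (0.0465). The calls over all genes moved too: with 1 stage left out they were 25 to 2418, beside 338 in the main fit. The 5 calls thus do not stand beside the 2.44% of the main fit. In single libraries *Mdm2* (1.37) and *Ccng1* (1.01) passed the fold at day 4, when 27.6% of genes did. No member did as MEFs (4.95%), at day 0 (4.63%), day 6 (7.74%) or day 7 (9.44%). Between single libraries, KI minus WT for *Ccng1* was -0.40 as MEFs and -0.15 at day 0. For *Zmat3* it was -0.09 as MEFs and 0.07 at day 0. Pluripotency markers summed to 0.996 to 1.49 FPKM in KI cells and 45.5 to 288 FPKM in WT cells of days 4, 6 and 7, and their part in these values was not tested. The test of late against early called none of the 10 (0.0723% of all genes), with *Mdm2* at 1.18 ± 0.29 (adjusted p = 0.427), or at 0.87 (0.452) without WT MEF and WT day 4, and without day 4 it called *Mdm2* (adjusted p = 0.042). With 1 stage left out, the test of late against early called 3 to 164 of all genes, beside 10 in the main fit. KO and KI were set against the same WT libraries, so *Mdm2* and *Ccng1* stand high in both comparisons against 1 set of WT values, of which day 4 was the lowest.

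**Figure D3:**
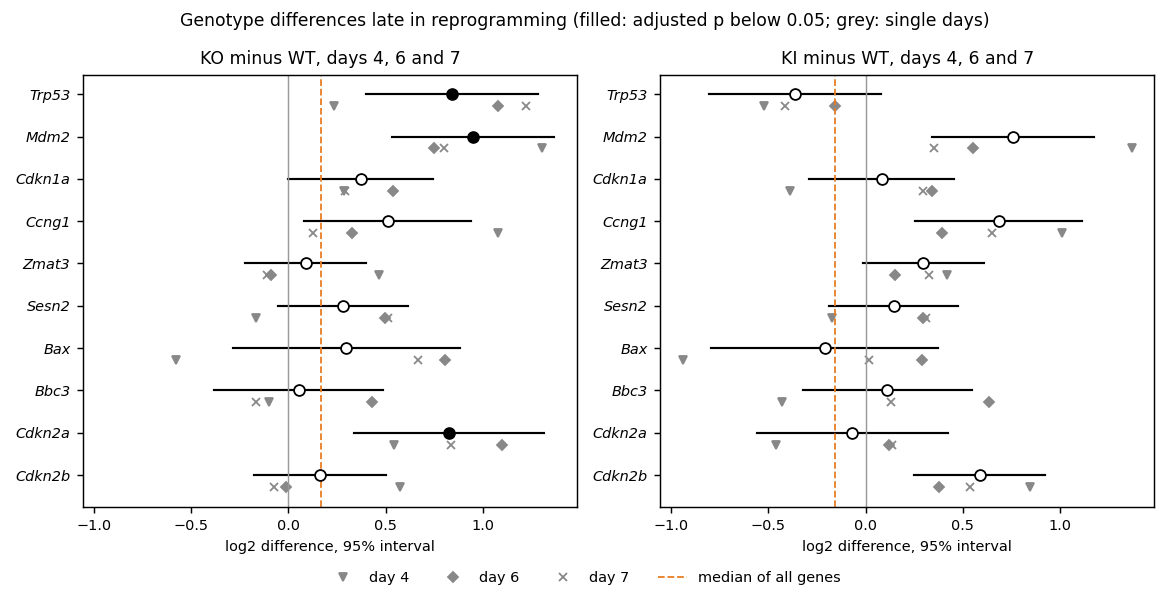
Log2 difference of FPKM + 1 (x axis) over days 4, 6 and 7 with its 95% interval, KO minus WT (left) and KI minus WT (right); filled points have a limma adjusted p below 0.05, grey marks give single days and the dashed line the median of all genes. *Mdm2*, *Trp53* and *Cdkn2a* are filled for KO and no gene is for KI. *Bax* and *Sesn2* at day 4 lie opposite to days 6 and 7 in both panels.

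Over days 4, 6 and 7, 14 of 35 other p53 targets were called higher in KO than WT and 1 lower, with a median difference of 0.57 beside 0.17 over all genes and 9.5% of all genes called higher. *Perp*, which encodes a desmosomal membrane protein needed in epithelia, rose by 2.76 ± 0.61 (limma adjusted p = 0.0255), *Epha2*, an ephrin receptor, by 2.51 ± 0.39 (adjusted p = 0.00929), *Tigar*, a regulator of glycolysis, by 1.45 ± 0.39 (adjusted p = 0.0452) and *Plk2*, a polo-like kinase, by 1.44 ± 0.21 (adjusted p = 0.00732). *Perp* was at 103, 207 and 246 FPKM in KO and 71.9, 11.7 and 17.7 FPKM in WT at days 4, 6 and 7. Epithelial markers moved with this list, at 69.9, 461 and 1002 FPKM in KO and 115, 16.05 and 44.0 FPKM in WT on these days, and their part in it was not tested. In KI cells 2 of the 35 were called, *Pidd1* (0.81 ± 0.12, adjusted p = 0.023) and *Ptpn14* (0.66 ± 0.13, adjusted p = 0.0471), both higher. Of 16 tested regulators and relatives of p53, 4 were higher in KO and none lower: the DNA damage kinases *Chek2* (0.64), *Atr* (0.62) and *Prkdc* (0.59) and the deacetylase *Sirt1* (0.61).

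The next counts stand beside 9.5% higher and 5.23% lower over all genes for KO, and 0.73% higher and 1.71% lower for KI. Of 15 genes of CDK4, RB and E2F, 1 was called in KO over WT, a share near that background. It was *Ccnd1*, encoding cyclin D1, at 2.03 ± 0.33 (limma adjusted p = 0.0117), with 279, 326 and 307 FPKM in KO and 159, 46.6 and 52.9 FPKM in WT at days 4, 6 and 7. Of the 4 other CDK inhibitors 1 was called, *Cdkn1c*, an imprinted gene, lower in KO by -2.24 ± 0.21 (adjusted p = 0.00169). It had 59.4 FPKM at day 4 and 24.9 FPKM at day 7 in KO, and 244 and 104 FPKM at these days in WT. Of 18 regulators of the *Cdkn2a* locus 5 were higher in KO and none lower, led by *Id1* (1.86 ± 0.50, adjusted p = 0.0438), *Phc1* (1.18), *Suz12* (1.09) and *Rnf2* (0.75), where the 3 named last encode Polycomb proteins. In the other BCL2 family *Pmaip1* (1.30) and *Bid* (0.98), both promoting apoptosis, were called higher of 11 tested, and among 9 sestrins and ATF4 targets *Ddit4* was higher (0.90) and *Ddit3* lower (-0.58). None of 14 proliferation genes was called in KO. At an unadjusted p below 0.05 there were 4 of the 14 and 4794 of all 13837 genes, a share not above that of all genes. In KI *Plk1* (-1.64), *Ccna2* (-1.58) and *Mki67* (-1.30) were called lower than in WT. All 14 were at lower means in KI. At an unadjusted limma p below 0.05 there were 14 of the 14, beside 3507 of all 13837 genes. Their median difference was -1.45, beside -0.16 over all genes. *Mki67* was at 3.11 to 3.41 FPKM in KI and 8.72 to 10.2 FPKM in WT over days 4 to 7.

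In iPSCs relative to day 7, of 16 regulators and relatives of p53, 11 were higher and 1 lower (median 0.97, beside 0.11 over all genes), led by *Chek1* (2.41 ± 0.82, limma adjusted p = 0.0304), *Sirt1* (2.39), *Npm1* (1.99) and *Usp7* (1.70). The 35 other p53 targets went both ways, 11 higher and 7 lower (median 0.10), near the 25.6% higher and 24.1% lower of all genes. Among them were the death receptor *Fas* at -4.11 ± 0.44 (limma adjusted p = 4.25e-05), *Dram1* at -3.81, *Ccnd2* at -3.19 and *Epha2* at 2.87. The other CDK inhibitors *Cdkn1c* (-3.80), *Cdkn2c* (-2.18) and *Cdkn2d* (-0.73) were lower, 3 of 4 tested, as *Cdkn1a*, *Cdkn2a* and *Cdkn2b* were. Regulators of the *Cdkn2a* locus were called in 14 of 18, 9 higher and 5 lower, where the count of lower genes lies near the share of all genes. The Polycomb-linked genes *Kdm2b* (3.40) and *Cbx7* (2.93) and the repressor *Tbx3* (3.25) were higher and *Twist1* (-2.65) was lower.

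Over all genes 25.6% were called higher and 24.1% lower in iPSCs relative to day 7, and the counts of 3 lower of 15 and 3 lower of 11 in these lists lie near that share. Around *Sesn2*, the sestrins and ATF4 targets had 5 higher and 1 lower of 9 in iPSCs, with *Trib3* (3.42), *Asns* (2.56) and *Chac1* (2.49) higher and *Sesn3* (-1.81) lower. In the CDK4, RB and E2F list 7 were higher and 3 lower of 15, with *Ccne1* (2.19), *E2f4* (1.78) and *Cdk2* (1.72) up and *Ccnd2* (-3.19) down; *Ccnd2* is also in the list of p53 targets. In the other BCL2 family *Bad* (-1.37), *Bcl2l2* (-1.19) and *Bcl2l11* (-0.73) were lower of 11, and 7 of 14 proliferation genes were higher, led by *Mcm2* (2.83), *Mcm3* (2.60), *Mcm5* (2.38) and *Mcm6* (1.81), which encode subunits of the replicative helicase.

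These list counts moved with the scaling and with the libraries in the fit. So did the calls over all genes. Leaving out 1 stage gave 24 to 7705 for KO and 25 to 2418 for KI, beside 2037 and 338 in the main fits. For KO they also rose without WT MEF and WT day 4. A larger list count below thus does not by itself set a list apart from all genes. For KO over WT, the other p53 targets were called 9 higher and 1 lower under upper-quartile scaling and 10 higher and 1 lower under quantile normalization. Without WT MEF and WT day 4 they were 19 higher and 3 lower, and without all day 4 libraries 23 higher and 5 lower. With KO and WT alone in the fit, or without day 6 or day 7, 0 of the 35 were called, and without MEF or day 0 libraries 1 was. The other BCL2 family did not keep its direction, with 1 higher and 2 lower under quantile normalization. Of the proliferation genes, 8 of 14 were higher in KO without WT MEF and WT day 4. Without all day 4 libraries 13 of the 14 were. In KI the main fit called 3 of the 14 lower. It was 13 without day 4 libraries, 9 with KI and WT alone in the fit, 6 with a pseudocount of 0.1 or under either scaling, and 4 with a filter at 5 FPKM. It was 0 with no filter, without WT MEF and WT day 4, and without MEF, day 0, day 6 or day 7 libraries. In iPSCs relative to day 7, leaving out WT MEF, WT day 4 and WT iPSC left 6 p53 regulators higher, 0 proliferation genes higher, and 6 higher and 5 lower p53 targets.

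**Figure D4:**
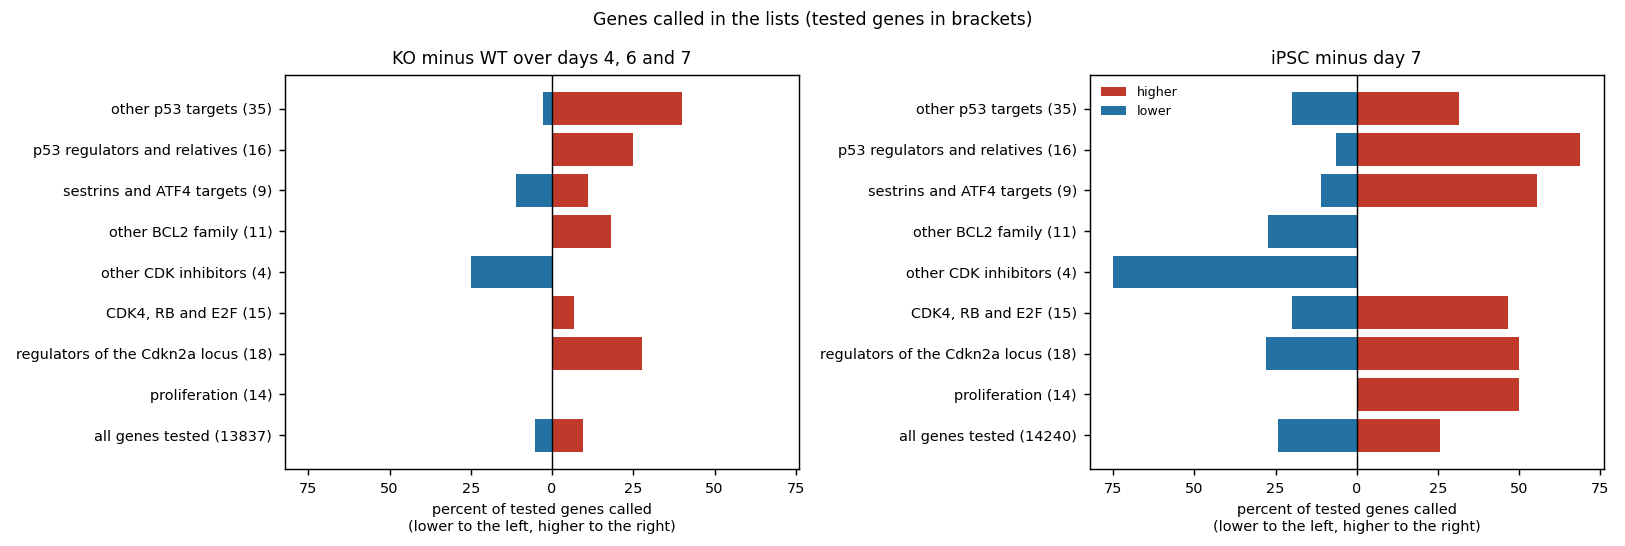
Percent of tested genes called by limma (x axis, higher to the right in red, lower to the left in blue) for 8 lists and all genes tested, KO minus WT over days 4, 6 and 7 (left) and iPSC minus day 7 (right). Of 35 other p53 targets 14 were higher in KO and 1 lower, beside 9.5% and 5.23% of all genes; in iPSCs 3 of 4 other CDK inhibitors were lower and 11 of 16 p53 regulators higher, beside 24.1% lower and 25.6% higher over all genes.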

How the data were processed

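Poly(A) RNA was sequenced with a stranded TruSeq kit, per the labels' protocols. The authors deposited a table of FPKM, with a single estimate for a gene in a library. The submitters' processing notes name Cufflinks 2.2.1, TopHat2 2.0.10, Bowtie 1.0.0, SAMtools 0.1.16 and FastQC, and the genome as GRCm38 or mm10. Neither depth nor annotation version is known from the labels or the table, so counting errors have no interval here. The sum of FPKM was 510501 to 690770 per library.

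Of 38756 lines, 41 that repeated 1 of 19 identifiers were summed. Tests were made with limma 3.58.1 in R 4.3.3 (2-sided, empirical Bayes with a variance trend) on log2(FPKM + 1) keeping genes whose mean FPKM reached 1, with Benjamini-Hochberg adjustment over all genes tested and calls below 0.05. On this scale the change of low genes is understated. Stage comparisons used 17 libraries with stage and genotype as terms (14240 genes). Genotype comparisons used the 15 libraries before iPSC, with stage and with genotype for the early (MEF, day 0) and late (days 4, 6 and 7) libraries as terms (13837 genes). Single libraries were compared without a test, by a log2 difference of at least 1 with at least 5 FPKM in 1 of them. The fit was tested on simulated data with independent noise in each library. That test does not cover the dependence between successive days of a genotype. Positions and 3′ untranslated regions came from GENCODE M21 and promoter windows and the microRNA from RefSeq tables. The 10 genes and all lists were chosen with earlier results of these data known. In each list, the count of calls and up to 4 called genes with the largest change are named, except 1 that is not reported here; *Tigar*, *Pidd1* and *Cop1* were matched by gene identifier.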

Additional observations from a re-analysis of the deposited data

How the results depend on the processing

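None of the differences called for the 10 genes in the main fits turned its direction under the other settings. The split of calls over all genes did turn in some comparisons. With the main settings 7 genes were called at day 0 versus MEF, against 4 with a pseudocount of 0.1, 15 with no filter, 2 with a filter at 5 FPKM, 3 with quantile normalization and 3 without the late KI libraries. At day 7 versus day 4 it was 3, against 1 with that pseudocount, 5 with no filter, and 1 each with the filter at 5, quantile normalization or no genotype term. Without the late KI libraries 1899 genes and 1 member, not 3182 and 2, were called at day 4 versus day 0. With WT MEF, WT day 4 and WT iPSC left out, 4120 of 7082 calls were left in number for iPSC versus day 7 and 3896 of 5955 for iPSC versus MEF. For KO versus WT over days 4, 6 and 7, 2037 genes and 3 members became 1356 genes with the filter at 5, 5317 genes and 5 members without the WT libraries of MEF and day 4, and 96 genes and 0 members with only the 2 genotypes compared. Late against early in KO, 11 became 17 with no filter, 1334 and 1 member without those WT libraries and 7 with 2 genotypes. For KI versus WT, 338 became 576 with the pseudocount of 0.1 and 188 without those WT libraries, and late against early 10 became 36. At day 7, KI against WT as single libraries, 907 genes became 1391 with a minimum of 1 FPKM. The cause of these changes was not tested, beyond fewer genes or libraries entering.

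Leaving out 1 genotype (stage comparisons) or 1 stage (genotype comparisons) gave 7 to 11 genes at day 0 versus MEF, 871 to 3274 at day 4 versus day 0, 3 to 12 at day 7 versus day 4, 2367 to 6934 for iPSC versus day 7 and 2789 to 4751 for iPSC versus MEF. It gave 24 to 7705 for KO and 25 to 2418 for KI versus WT, and 4 to 6607 and 3 to 164 late against early. The members called ranged from 0 to 3 at day 4, 4 to 5 for iPSC versus day 7, 3 to 4 for iPSC versus MEF, 0 to 6 for KO, 0 to 5 for KI, and 0 to 3 (KO) and 0 to 1 (KI) late against early. Quantile normalization turned the split of calls at day 4 versus day 0 to 1246 higher and 1777 lower, beside 1756 and 1426, and that of KI versus WT to 179 and 187, beside 101 and 237. Stage comparisons were made within genotypes, with genotype as a term. No paired analysis by replicate number was possible because the labels give none. The counts for gene lists under these settings were added after seeing the data.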

Other observations

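Among the 45 pairs of the 10 genes, 23 had a Pearson correlation of log2(FPKM + 1) above 0 over the 17 libraries, which share genotypes and stages, so these values are descriptions. *Cdkn2b* and *Ccng1* (0.85), *Trp53* and *Bax* (0.82) and *Cdkn1a* and *Cdkn2a* (0.74) were the closest pairs, and *Cdkn2b* and *Sesn2* (-0.80) and *Trp53* and *Cdkn2b* (-0.78) the most opposed.

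Of 10070 genes compared, predicted genes and pseudogenes were passed over when the closest genes were named. Those with the course most like *Trp53* over the 17 libraries were then *Ptcd3*, *Nol9* and *Khsrp* (each 0.99). *Cdkn2a* was closest to *Yipf1* (0.92), *Ephx1* (0.92) and *Pik3r3* (0.90), and *Cdkn1a* to *Ip6k2* (0.94), *Pam* (0.93) and *Arl6ip5* (0.93). *Cdkn2b* was closest to *Pappa*, *Secisbp2l* and *Pcdh7* (each 0.96). *Mdm2* was closest to *Rictor* (0.90), *Brox* (0.87) and *Kif5b* (0.87), *Ccng1* to *Pde4dip* (0.96), *Spop* (0.95) and *Kif1a* (0.94), and *Bax* to *Tufm*, *Mrto4* and *Ikbkap* (each 0.96). *Bbc3* was closest to *Atf6b* (0.85), *Ank3* (0.84) and *Hadha* (0.84), and *Sesn2* to *Aldh2* (0.92), *Ccdc117* (0.91) and *Kat6b* (0.91). *Zmat3* had the weakest likeness of the 10, with *Msmp*, *Nisch* and *Mlec* (each 0.78).

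At day 4 relative to day 0 the other p53 targets moved in both directions, 7 of 35 higher and 6 lower beside 12.3% and 10% of all genes. *Plk2* fell by 2.32 ± 0.36 on the log2 scale (limma adjusted p = 0.000991), while *Dram1* rose by 2.80 ± 0.47 (adjusted p = 0.00164) and *Fas* by 2.65 ± 0.39 (adjusted p = 0.000691). At day 4 *Fas* was at 40.3 FPKM in KO, 59.9 FPKM in KI and 29.3 FPKM in WT cells, against 9.17, 4.73 and 4.27 FPKM in the KO, KI and WT cells of day 0.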
